A study of Mus musculus with 4 samples.

Results

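The genes described here are 8 smooth muscle contractile genes, *Acta2*, *Myh11*, *Tagln*, *Cnn1*, *Myl9*, *Tpm2*, *Lmod1* and *Itga8*, among 18767 genes in the table, followed in single endothelial cells (EC) of the mouse aorta. A cell counted as EC when it held more than 1200 genes and at least 3 summed counts of *Pecam1*, *Cdh5* and *Vwf*, which encode CD31, VE-cadherin and von Willebrand factor. Of 991 deposited cells, 824 held more than 1200 genes and 820 of those passed the endothelial gate, with 199, 236, 140 and 245 in libraries s001, s002, s003 and s004. Only 4 cells with more than 1200 genes lay below the gate, 3 in s001 and 1 in s004. The cells were chosen by their measured counts of the gate genes and their number of genes, and the 8 genes were listed with earlier results of these data known, so levels above and below the gate are given as a description.

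Libraries s001 and s002 are labelled Jag1 ECKO and libraries s003 and s004 Jag1 ECWT. In the study the first genotype is Jag1 fl/fl with a CreERT2 recombinase driven by the Cdh5 promoter, and the controls are Jag1 fl/fl mice that lack the Cre, so both carry the floxed alleles. All were male on a C57BL/6J background, 1.5 to 3 months old, and received 2 mg of tamoxifen per day for 5 days. Aortic cells were sorted as CD31+ and CD45- into wells, and SORT-seq, a plate method that tags each transcript near its 3′ end with a molecular identifier, gave the counts. The study describes the sequencing apart from its experiments in hyperlipidemic mice. The sources used here do not give the number of animals behind each library, so the spread between libraries may be partly technical.

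Vascular smooth muscle cells shorten when myosin pulls on actin filaments. The smooth muscle actin of *Acta2* and the myosin heavy chain of *Myh11* form the motor, *Myl9* supplies its regulatory light chain, and *Tpm2* and *Cnn1* encode tropomyosin and calponin, which sit along the thin filament. *Tagln* encodes transgelin, an actin cross-linking protein, *Lmod1* encodes leiomodin, which starts new actin filaments, and *Itga8* encodes the integrin alpha 8 subunit that ties the cell to its matrix. *Acta2* and *Tagln* also appear in myofibroblasts and in endothelium that takes on mesenchymal features, whereas *Myh11* and *Cnn1* are held to be more restricted to mature smooth muscle.

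Many promoters of this set are known to carry CArG boxes, the sites read by serum response factor. Because the 8 genes are known for shared control and their counts are followed side by side below, the windows of *Acta2* and *Myl9* are shown, 250 bases before to 50 bases after the start, from RefSeq on GRCm38.p6. The *Acta2* window lies at chr19:34255324-34255623 on the minus strand and the *Myl9* window at chr2:156775214-156775513 on the plus strand. Capitals mark matches of CC, then 6 bases of which at most 1 is C or G, then GG, a form that reads the same way on either strand.
Acta2: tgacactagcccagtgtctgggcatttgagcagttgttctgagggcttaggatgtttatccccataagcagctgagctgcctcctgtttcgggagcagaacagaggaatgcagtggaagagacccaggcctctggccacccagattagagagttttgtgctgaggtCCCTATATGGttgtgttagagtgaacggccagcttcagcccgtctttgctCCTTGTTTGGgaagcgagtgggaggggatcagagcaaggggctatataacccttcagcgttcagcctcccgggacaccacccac
Myl9: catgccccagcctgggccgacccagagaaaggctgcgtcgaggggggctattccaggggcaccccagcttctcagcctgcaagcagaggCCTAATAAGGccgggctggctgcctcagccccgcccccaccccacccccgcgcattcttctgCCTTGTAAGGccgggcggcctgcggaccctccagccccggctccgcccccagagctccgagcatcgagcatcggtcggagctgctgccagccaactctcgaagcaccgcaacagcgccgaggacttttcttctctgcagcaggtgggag
RefSeq windows were found for 6 of the 8 genes, and 2 of the 6 held such a match, against 9.98% of all 32851 windows. In the *Acta2* window the matches began 84 and 34 bases before the start, and each had 1 C or G among its 6 middle bases. In the *Myl9* window they began 161 and 99 bases before the start, and the first of these, CCTAATAAGG, was the only strict CArG box with A or T at all 6 middle positions among the 6 genes, a form found in 1.63% of all windows. A match describes the letters of a window and says nothing here of binding.

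The libraries differed in ways that touch these genes. The median count per gated EC was 4155, 6517.5, 5576.5 and 5212 across s001 to s004. Shares of cells are therefore also given after each cell was thinned to 2836 counts, which kept 164, 223, 127 and 225 cells and left out 35, 13, 13 and 20 shallower ones. *Jag1*, the targeted gene, reached 164 and 70.8 counts per 1000000 (CPM) in s001 and s002 and 32.6 and 25.6 in s003 and s004, so the libraries labelled Jag1 ECKO carried more of it than those labelled Jag1 ECWT (log2 2.0 ± 0.38 SE, edgeR adjusted p = 0.484). Counts near the 3′ end need not show a deletion elsewhere in the gene, but every direction below refers to the label of the library. Library s001 also stood apart, with 2526 CPM over 15 dissociation response genes against 1081 to 1349 elsewhere, and 85.7 CPM of erythroid genes against at most 0.67. Of 373 distinct well barcodes, 324 occur in 2 or more libraries and 86 in all 4.

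The endothelial gate did not hold back every cell with a muscle profile. Cells were called muscle-led where counts over 16 smooth muscle reference genes, none of them among the 8, exceeded the counts of the 3 gate genes. This class was added after the data had been seen. It holds 11 cells with more than 1200 genes, 6, 2, 0 and 3 in s001 to s004, and includes the 4 cells below the gate. Another 7 passed the gate, 3 in s001, 2 in s002 and 2 in s004, and the remaining 813 gated cells are called endothelium-led. Low counts of the gate genes are part of how the class was defined, so the 9 other endothelial markers are given as a description. They summed to 444 to 852 CPM in the muscle-led cells of the 3 libraries that held any, and to 3368 to 4698 CPM in endothelium-led cells. *Emcn*, which encodes endomucin, had no count in muscle-led cells and stood at 173 CPM in endothelium-led cells.

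Below the gate the 8 genes took a large part of the transcriptome. The 4 cells held 1078, 490, 367 and 535 counts of the 8 genes, between 3.58% and 7.09% of all their counts, beside 1 or 2 counts of the gate genes. Their level was 60.8 ± 36.0 times that of gated EC (mean ± SD over the 2 libraries with such cells, s001 and s004). Over all 11 muscle-led cells *Acta2* stood at 19984 CPM, *Myh11* at 6664, *Tagln* at 6368 and *Myl9* at 4763. In endothelium-led cells of all libraries the same genes stood at 287, 36.9, 88.0 and 14.0 CPM. A 3′ count stands for a transcript whatever its length, so these levels can be set side by side.

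In gated EC the motor genes *Acta2* and *Myh11* were higher in both libraries labelled Jag1 ECKO. *Acta2* reached 837 CPM in s001 and 823 in s002 against 190 in s003 and 413 in s004. The 4 values do not overlap between labels. Such an order, with both libraries labelled Jag1 ECKO higher, was found for 16.0% of the 9696 genes tested between labels. *Myh11* stood at 201, 202, 1.16 and 97.0 CPM across s001 to s004. The s003 level rests on 1 count in 140 cells. *Myl9*, the regulatory light chain, followed the same order with 130 and 117 CPM against 2.33 and 49.2.

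The thin filament genes and *Itga8* were sparse. *Tpm2* stood at 54.1 and 61.3 CPM in s001 and s002 and at 26.9 in s004, and had no count in s003. *Cnn1* stood at 26.5 and 30.4 CPM in s001 and s002 and at 14.1 in s004, and had no count in s003, where 0 counts allow a level of up to 3.49 CPM and a share of up to 2.14% of cells. *Itga8* stood at 59.1, 51.2, 1.16 and 18.9 CPM across s001 to s004. For these 3 genes too, both libraries labelled Jag1 ECKO lay above both others, as for 16.0% of all genes tested, and s003 was the lowest.

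*Tagln* and *Lmod1* did not separate the labels. *Tagln* stood at 218, 157, 150 and 183 CPM across s001 to s004, a narrow range in which s004 lay above s002. *Lmod1* stood at 17.3, 29.2, 6.98 and 19.5 CPM, with s004 above s001. In s003, where 5 of the 8 genes were at 0 to 2.33 CPM, *Tagln* was almost as high as *Acta2*.

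**Figure D1:**
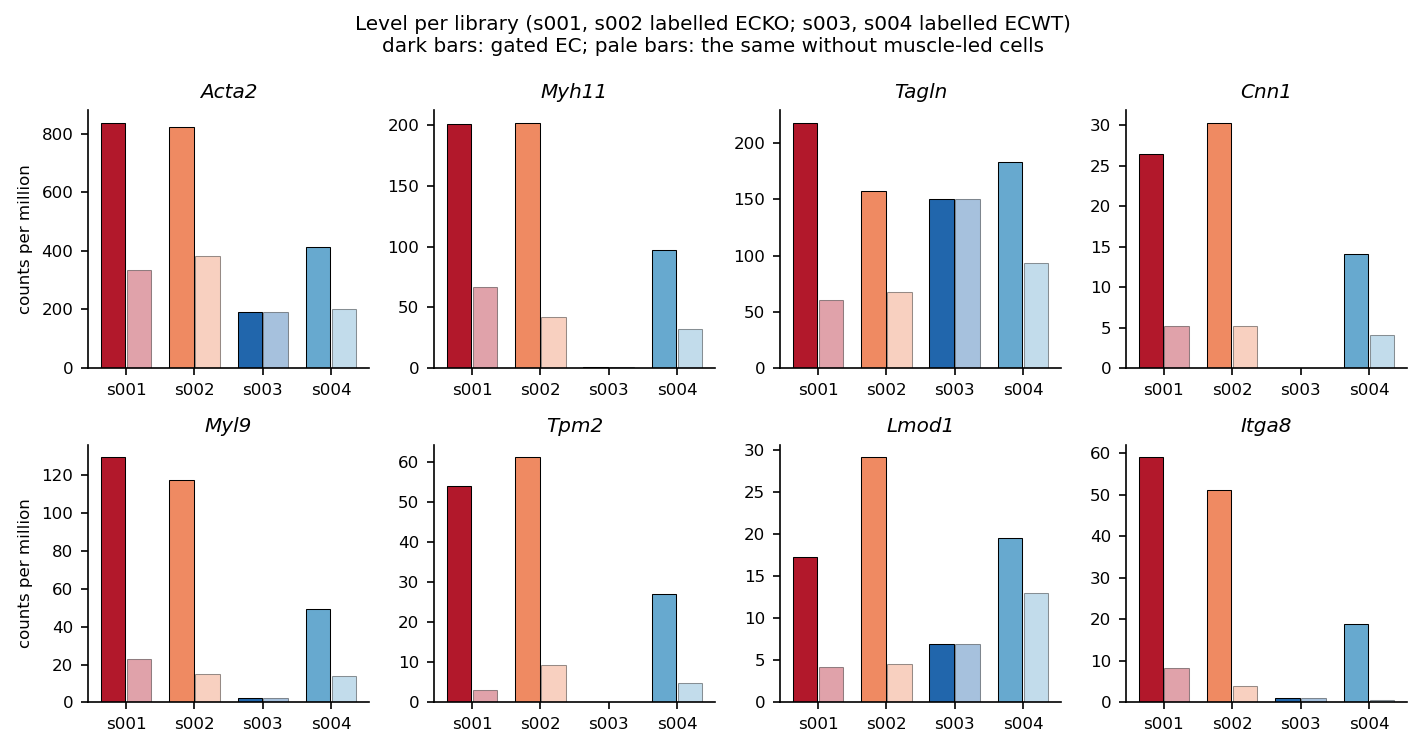
CPM of each gene in each library, with one panel per gene and a linear axis from 0; dark bars are all gated EC and pale bars the same cells without the muscle-led ones. *Acta2* in gated EC is near 830 in s001 and s002, and its pale bars lie between 190 and 382 in all 4 libraries, while in s003 dark and pale bars are equal because no cell there was muscle-led.

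By the share of cells with a count, 6 of the 8 genes lay higher in both libraries labelled Jag1 ECKO, beside 9.81% of the 9696 genes tested between labels, and *Lmod1* lay lower in both, beside 15.1%. After thinning 5 lay higher, *Cnn1* no longer among them, beside 15.7%, and *Tagln* lay lower in both, beside 19.2%. *Acta2* was counted in 70.9% of gated EC in s001 (95% exact binomial interval 64.0% to 77.1%), 71.2% in s002, 27.9% in s003 (20.6% to 36.1%) and 49% in s004. After thinning the shares were 50%, 48.4%, 21.3% and 32.4%, in nearly the same order. *Tagln* was counted in 20.6%, 21.6%, 25.7% and 20.8% of cells, and after thinning in 12.8%, 13.0%, 18.9% and 16.4%. Intervals cover counting error only. *Tagln* was thus as common in s003 as elsewhere, while *Acta2* was least common there.

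*Myh11* was counted in 24.6%, 25.4%, 0.714% and 10.2% of gated EC across s001 to s004. After thinning these shares were 18.3%, 8.52%, 0 and 7.11%, and the intervals of s002 (5.21% to 13.0%) and s004 (4.12% to 11.3%) overlapped at equal depth. *Myl9* was counted in 11.1%, 11.4%, 1.43% and 7.76% of cells. *Cnn1*, *Tpm2*, *Lmod1* and *Itga8* were each counted in at most 6.53% of the cells of any library. No class of cells that should lack these genes was sorted beside the EC, so a background share could not be measured directly.

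Most EC held few counts or none, and a few cells held most of them. Among the 820 gated EC, 247 had no count of any of the 8 genes, 197 had 1, 213 had 2 or 3, and 117 had 4 to 9. Another 37 had 10 to 49 and 9 had 50 or more. Those 9 cells, 1.10% of the total, held 64.5% of all counts of the 8 genes. The median cell held 2 counts in both s001 and s002, 0 in s003 and 1 in s004, so the levels in CPM above are set largely by a handful of wells.

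Cells with 10 or more counts numbered 9, 16, 9 and 12 in the libraries s001 to s004. They held 75.5%, 80.2%, 54.0% and 74.3% of the counts of their library, or 71.0% ± 11.6 (mean ± SD, n = 4 libraries). Without the muscle-led cells their number was 6, 14, 9 and 10, and their share of the counts 23.6%, 43.5%, 54.0% and 40.9%. The mean share was then 40.5%. In s003, which held no muscle-led cell, both descriptions are the same.

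**Figure D2:**
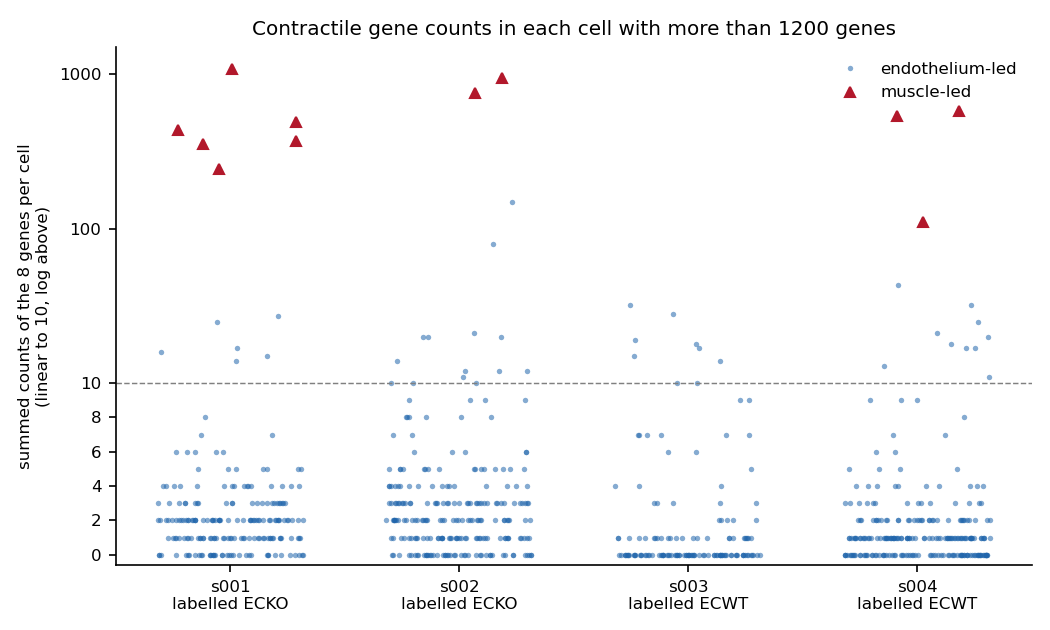
Summed counts of the 8 genes in each of the 824 cells with more than 1200 genes, by library; the axis is linear to 10 and logarithmic above, blue points are endothelium-led cells and red triangles muscle-led cells. The 11 triangles lie between 110 and 1078 counts, and the 2 highest blue points, both of s002, lie at 148 and 80, the first of them above the lowest triangle.

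Leaving out the 7 gated muscle-led cells lowered all 8 genes in s001, s002 and s004. *Acta2* went to 334 and 382 CPM in s001 and s002 and to 190 and 201 CPM in s003 and s004. *Myh11* went to 66.8, 42.1, 1.16 and 32.2 CPM, and *Myl9* to 23.0, 15, 2.33 and 13.7. *Tpm2* was left at 3.13, 9.23, 0 and 4.79 CPM and *Cnn1* at 5.22, 5.19, 0 and 4.11. *Acta2*, *Myh11* and *Myl9* still lay higher in both libraries labelled Jag1 ECKO, beside 15.8% of the 9535 genes tested in endothelium-led cells. *Tpm2* no longer did, and the gap between s002 and s004 was small for *Myl9* and *Cnn1*.

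*Tagln* and *Lmod1* lay the other way round between labels once these cells were removed. Of the 9535 genes tested in endothelium-led cells, 18.8% likewise lay lower in both libraries labelled Jag1 ECKO. *Tagln* stood at 60.6 CPM in s001 and 68.1 in s002 against 150 in s003 and 93.1 in s004, with both libraries labelled Jag1 ECWT now above both others. *Lmod1* stood at 4.18 and 4.61 CPM against 6.98 and 13.0, on 4 to 19 counts per library. *Itga8* rested on 8, 7, 1 and 1 counts. The summed level of the 8 genes was 505 and 530 CPM in s001 and s002 and 351 and 363 CPM in s003 and s004.

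*Acta2* was the largest part of the 8 genes in muscle-led cells, and the smaller parts varied from cell to cell. Over all 12 muscle-led cells of any size, *Acta2* made up 45.9% of the 6007 counts, *Myh11* 15.3%, *Tagln* 14.5%, *Myl9* 11.0%, *Tpm2* 5.68%, *Itga8* 4.01%, *Cnn1* 1.85% and *Lmod1* 1.70%. *Acta2* was between 44.3% and 47.2% in each of the 3 libraries that held such cells, and *Myh11* between 14.6% and 16.8%. *Tagln* varied more, from 9.63% in s002 to 19.3% in s004. In single cells *Acta2* ran from 41.0% to 56.1%, *Tagln* from 6.87% to 20.7% and *Itga8* from 0.371% to 9.39%.

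Endothelium-led cells with fewer than 10 counts had another mix. *Acta2* made up 66.5% of their counts in s001 (exact interval 61.4% to 71.3%) and in s002, 49.6% in s003 and 57.5% in s004. *Myh11* made up 13.2%, 12.9%, 0.719% and 7.99%, and *Myl9* 4.05%, 4.24%, 0.719% and 4.15%. *Tagln* made up 11.9%, 9.63%, 44.6% and 24.3%. In every library the share of *Myl9* lay below its 11.0% in muscle-led cells. The libraries labelled Jag1 ECWT carried more *Tagln* among these counts, and s003 carried the 2 genes *Acta2* and *Tagln* with hardly any of the others.

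*Myh11*, *Myl9* and *Cnn1* in endothelium-led cells were at or near 0 in s003, the library without muscle-led cells, but the 8 genes did not share 1 order. Muscle-led cells held 2964, 1818, 0 and 1225 counts of the 8 genes in s001 to s004. *Myh11* in endothelium-led cells numbered 64, 73, 1 and 47 counts in the same order, *Myl9* 22, 26, 2 and 20, and *Cnn1* 5, 9, 0 and 6. *Acta2* numbered 320, 662, 163 and 294 counts and *Tagln* 58, 118, 129 and 136, so both were present in s003 where no muscle-led cell was found. *Lmod1*, with 4, 8, 6 and 19 counts, was also present there, and *Tpm2*, with 3, 16, 0 and 7, was sparse in s001 where muscle-led cells held the most. Transfer of counts between wells was not tested.

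**Figure D3:**
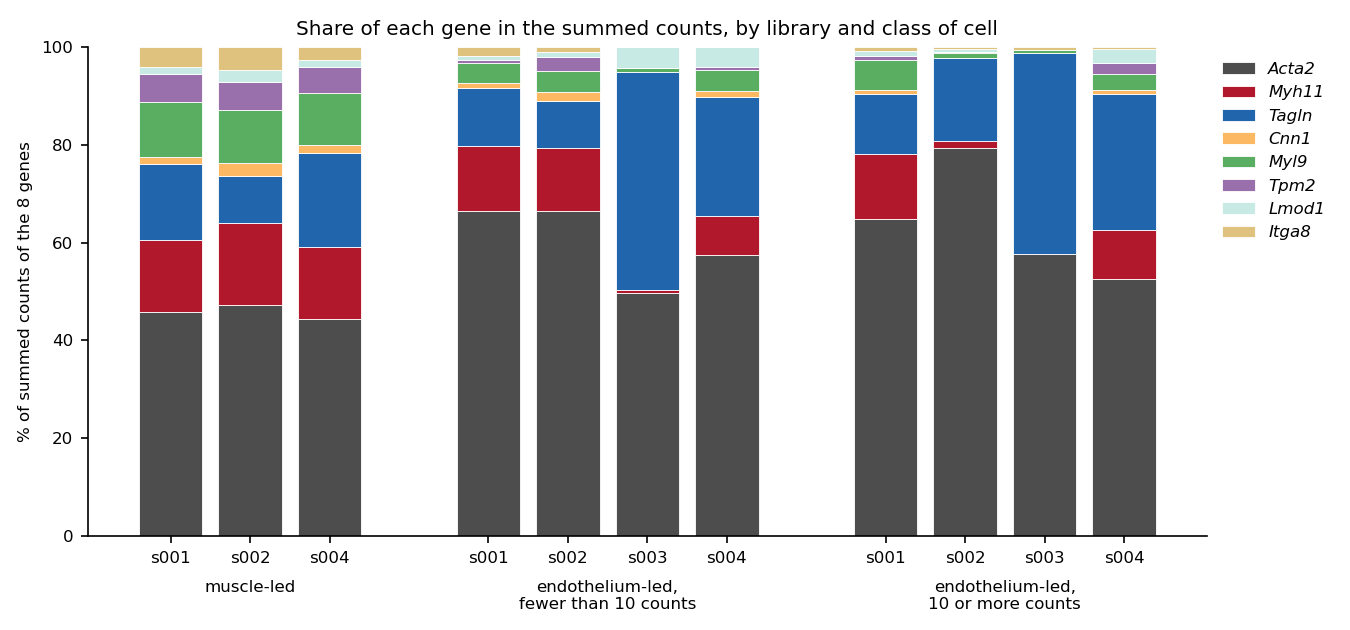
Share of each of the 8 genes in their summed counts, as stacked bars adding to 100%, for muscle-led cells (3 libraries), endothelium-led cells with fewer than 10 counts and endothelium-led cells with 10 or more. *Myh11* (red) and *Myl9* (green) take 15.3% and 11.0% over all muscle-led cells and almost vanish in s003, where *Acta2* and *Tagln* fill the bar.

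In endothelium-led cells with 10 or more counts, *Acta2* took the largest share in every library. Over these 39 cells *Acta2* made up 67% of 894 counts and *Tagln* 23.4%, while *Myh11* made up 4.81% and *Myl9* 2.13%. Library s002 held 400 of these counts, and the libraries differed. *Myh11* made up 13.2%, 1.5%, 0 and 10.1% across s001 to s004, *Tagln* 12.3%, 17.0%, 41.1% and 27.6%, and *Myl9* 6.14%, 1.0%, 0.613% and 3.23%. The pooled share of *Myh11* was 7.49% without s002 and 3.10% without s004. The cell with the most held 140 counts of *Acta2*, 6 of *Tagln* and 1 of *Myh11* in s002, beside 70 counts of the gate genes and 3 of the smooth muscle reference genes. The next, also in s002, held 67 counts of *Acta2*, 12 of *Tagln* and none of *Myh11*, beside 63 gate counts. In s003 the 2 highest cells held 11 and 9 counts of *Acta2* and 21 and 19 of *Tagln*, with no *Myh11*, *Cnn1*, *Tpm2* or *Lmod1*. Gate counts of these cells lay above the median of 42 in s002, and were 25 and 37 in s003 beside a median of 37. The s002 cells were deep, with 14686 and 10602 counts in all beside a median of 6517.5. Scaled to all counts, the median gate level of endothelium-led cells with 10 or more counts was 6049, 5455, 6571 and 4506 CPM across s001 to s004. In those with 1 to 9 counts it was higher, at 7840, 6627, 6686 and 6498 CPM.

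A pair of endothelium-led cells did carry *Myh11* at the level of *Acta2*. One in s001 held 13 counts of *Myh11* and 7 of *Acta2*, beside 26 gate counts and 8 smooth muscle reference counts. The other, in s004, held 12 and 13 counts, with *Tagln*, *Cnn1*, *Myl9*, *Tpm2* and *Lmod1* also counted, beside 16 gate counts. A muscle-led cell of s004 held 72 gate counts together with 580 counts of the 8 genes. Whether wells of this kind held more than 1 cell was not tested.

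Summed fibroblast counts were higher in the cells rich in the 8 genes, but not every fibroblast gene was. Over 12 fibroblast genes, endothelium-led cells with 10 or more counts stood at 2651, 8298, 3041 and 3341 CPM across s001 to s004, against 1259, 1652, 1785 and 1720 CPM in endothelium-led cells with fewer. *Dcn*, which encodes decorin, made up most of this, at 3668 against 711 CPM over all libraries and 1945 against 679 CPM without s002. *Col1a2*, a collagen gene, was higher in the rich cells of every library, at 422, 964, 445 and 688 CPM against 364, 351, 285 and 487. *Lum*, which encodes lumican, was lower in the rich cells of s001, s003 and s004, at 0, 15.4 and 0 CPM against 31.7, 113 and 18.8, and higher in those of s002, at 543 against 107. *Mfap5*, a microfibril gene, was lower in those of s003 and s004, at 138 and 113 CPM against 259 and 277, and higher in those of s001 and s002, at 235 and 306 against 179 and 228. In s002 a pair of cells held 756 and 418 fibroblast counts with 10 and 20 counts of the 8 genes, so they weigh heavily there. Fibroblast counts exceeded gate counts in 8 of the 39 cells and in 37 of the 774 others. Without those cells and the muscle-led ones, cells with 10 or more counts held 37.0% of the counts on average over libraries.

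Co-detection within a cell was measured on thinned counts against the number expected if the 8 genes fell independently on the cells of a library. In gated EC 36, 39, 15 and 28 cells of s001 to s004 held 2 or more of the genes, where 45.9, 39.7, 5.75 and 31.0 were expected. The ratios were 0.784, 0.983, 2.61 and 0.904. Without muscle-led cells they were 0.928, 1.13, 2.61 and 1.04. Counted pair by pair the picture differed. In gated EC 27, 28, 3 and 28 of the 28 pairs met in more cells than expected across s001 to s004, and *Cnn1* and *Tpm2* met in 3, 4, 0 and 3 cells where 0.122, 0.112, 0 and 0.107 were expected. Without muscle-led cells 12, 10, 3 and 25 of the 28 pairs did, most of them on few cells. In s003 *Myh11*, *Cnn1*, *Myl9* and *Tpm2* had no count in any thinned cell, so no pair with these genes could exceed its expected number there. The expected number assumes that all cells are alike, and no test was made.

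The excess in s003 came from *Acta2* and *Tagln*. Both were counted in 15 thinned endothelium-led cells there, where 5.1 were expected from 27 cells with *Acta2* and 24 with *Tagln* among 127. In s001 8 cells held both against 8.83 expected, in s002 18 against 13.0 and in s004 13 against 11.1. *Acta2* and *Myh11* met in 9, 12, 0 and 5 cells against 13.2, 8.15, 0 and 4.46 expected. Without thinning, *Tagln* was counted in 48.7% of the s003 cells that had *Acta2* and in 16.8% of those that had none. The same shares were 22.5% and 12.1% in s001, 26.5% and 7.35% in s002 and 21.2% and 19.2% in s004, so *Tagln* was also more common beside *Acta2* in s001 and s002. Unthinned shares move with the depth of each cell.

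**Figure D4:**
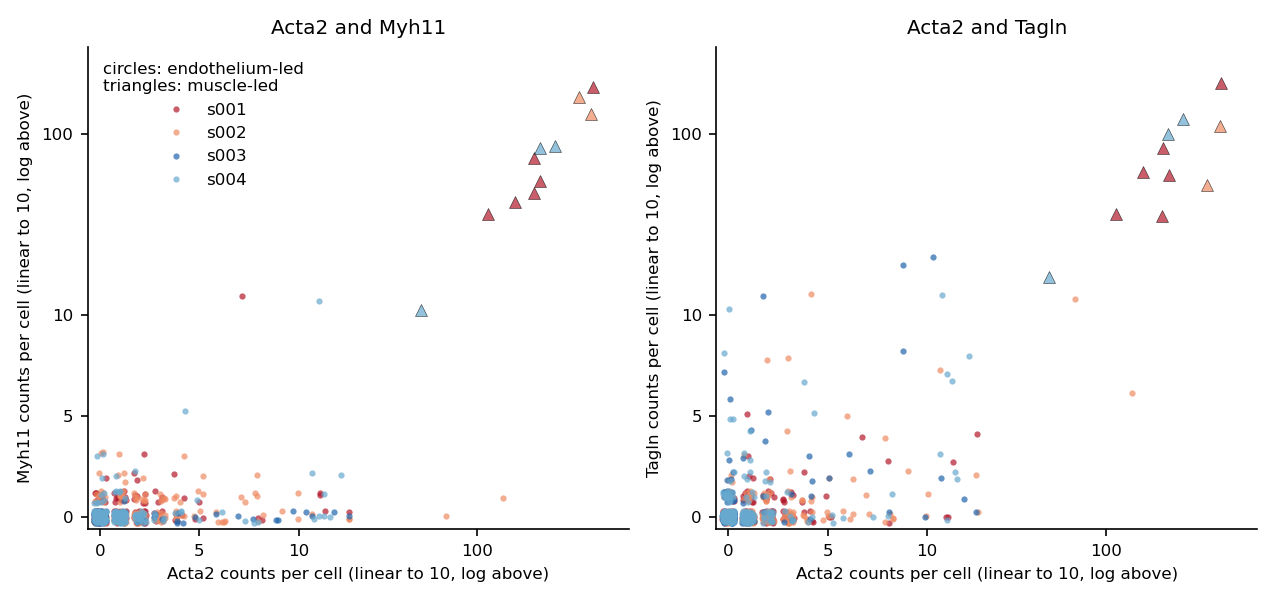
Counts of *Acta2* against *Myh11* (left) and *Tagln* (right) in each cell with more than 1200 genes, coloured by library, on axes linear to 10 and logarithmic above, with a small random shift to part equal values. Muscle-led cells (triangles) rise along a diagonal in both panels, and the endothelium-led cells of s002 with 140 and 67 *Acta2* counts stay at 1 and 0 counts of *Myh11*.

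The comparison between genotype labels was made on counts summed over the gated EC of each library, with edgeR and adjustment over all 9696 genes tested. All 8 genes were tested and 0 passed an adjusted p of 0.05, as did 0.0% of all genes. At an unadjusted p below 0.05 were 6 of the 8, *Acta2*, *Myh11*, *Cnn1*, *Myl9*, *Tpm2* and *Itga8*, beside 4.73% of all genes tested. All 8 estimates were positive with a median of 1.82 on the log2 scale, and the median of all genes was 0.00. DESeq2 called 2 genes, 0.0206% of those tested, and none of the 8. Both libraries labelled Jag1 ECKO lay above both others in CPM for 6 of the 8 genes and for 16.0% of all genes tested. With 2 libraries against 2 a permutation of the labels cannot reach 0.05.

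Among single genes the estimate for *Acta2* was 1.45 ± 0.33 (log2 ± SE, edgeR adjusted p = 0.654), from 830 ± 10.1 CPM in the libraries labelled Jag1 ECKO and 301 ± 158 in the others (mean ± SD, n = 2 each). *Itga8* stood at 2.23 ± 0.59, *Myl9* at 2.08 ± 0.64, *Myh11* at 1.90 ± 0.79, *Tpm2* at 1.88 ± 0.71 and *Cnn1* at 1.77 ± 0.72, all with edgeR adjusted p = 0.910. The large SE of *Myh11* goes with its 1 count in s003 beside 144 in s004. *Lmod1* stood at 0.77 ± 0.50 and *Tagln* at 0.16 ± 0.21.

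The calls turned on single libraries. Without s001, 6 of the 8 genes passed, beside 2.02% of all genes tested. Without s002, 5 passed, beside 3.5%. Without s004, 5 passed, beside 0.0615%, and the comparison was then against s003 alone, with *Acta2* at 2.19, *Itga8* at 5.50, *Myl9* at 5.73, *Myh11* at 7.38, *Cnn1* at 8.13 and *Tpm2* at 9.14. These fitted values rest on 0 to 2 counts in s003 for all but *Acta2* and are no bounds. Without s003, 0 of the 8 and 0.0% of all genes passed, and *Acta2* stood at 0.99, *Itga8* at 1.52, *Myl9* at 1.30, *Tpm2* at 1.09, *Myh11* at 1.04 and *Cnn1* at 1.00. With no filter on low counts 6 of the 8 passed, beside 0.595%. In fits that leave 1 library on a side, that library is assumed to vary like the others.

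In endothelium-led cells the same test kept *Acta2*, *Myh11*, *Tagln* and *Myl9*, and the other 4 genes did not pass the filter on low counts. None of the 4 passed an adjusted p of 0.05, as did 0.0% of 9535 genes. *Acta2* stood at 0.89 ± 0.19 and *Tagln* at -0.86 ± 0.25, both at an unadjusted p below 0.05, beside 4.39% of genes. *Myh11* stood at 1.48 ± 0.69 and *Myl9* at 1.04 ± 0.62. The sign of *Tagln* was therefore opposite to that in all gated EC, and opposite to that of *Acta2* in the same cells. In CPM 5 of the 8 genes lay higher in both libraries labelled Jag1 ECKO, beside 15.8% of genes tested, and *Tagln* and *Lmod1* lay lower in both, beside 18.8%.

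*Acta2* in endothelium-led cells passed when s001 was left out, at 1.03, beside 0.537% of genes, and when s002 was left out, at 0.73, beside 2.29%. Without s003 0 of the 8 passed, beside 0.0%, and without s004 *Myh11* alone passed, beside 0.0103%. Dissociation response genes were higher in s001, and 14 of 14 tested had positive estimates with a median of 0.74. *Jun*, *Egr1*, *Ier2* and *Dusp1*, the 4 at the highest level, had estimates of 0.26, 0.69, 0.49 and 1.16. *Fos* stood at 107 and 87.1 CPM in gated EC of s001 and s002 and at 30.3 and 53.9 in s003 and s004. For this gene s002 also lay above both libraries labelled Jag1 ECWT. Over the whole list s002 did not, with 1194 CPM against 1349 in s003 and 1081 in s004. *Jun*, *Egr1* and *Ier2* were lower in s002 than in s003, at 243, 136 and 116 against 286, 182 and 129 CPM. *Dusp1* was higher in s002, at 120 against 109 CPM. The part of these genes in the estimates was not tested.

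**Figure D5:**
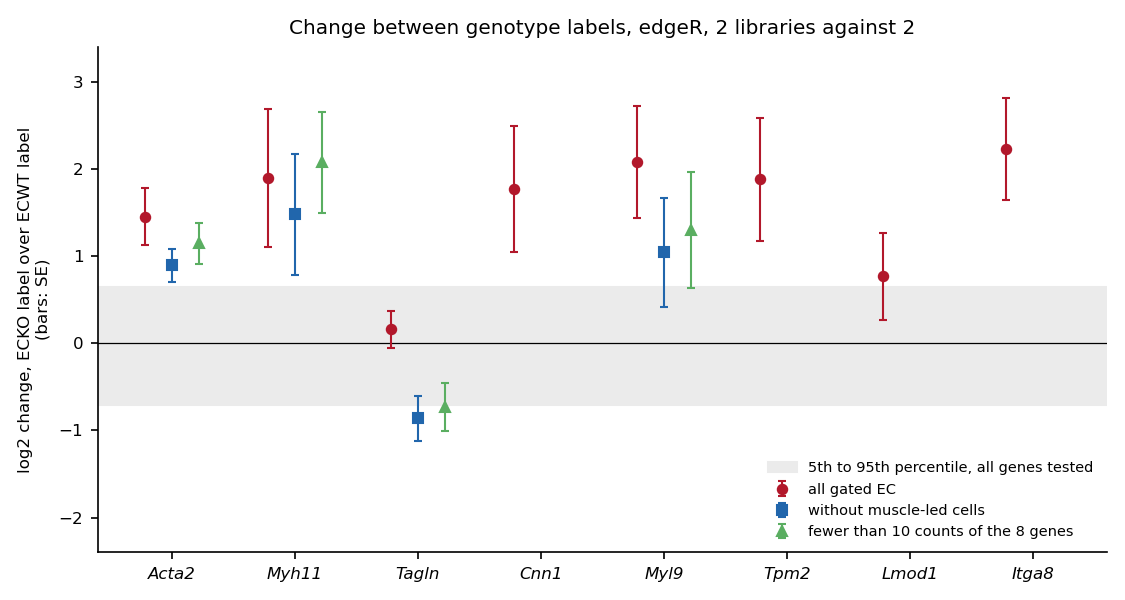
Log2 change of each gene between labels with its SE from edgeR, for all gated EC (circles), without muscle-led cells (squares) and for gated EC with fewer than 10 counts of the 8 genes (triangles); the grey band spans the 5th to 95th percentile of all genes tested, -0.71 to 0.64. *Tagln* moves from 0.16 to -0.86 and -0.73 while *Acta2* stays at 1.45, 0.89 and 1.15; genes without a square or triangle did not pass the filter on low counts.

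Among 22 other contractile genes 15 were tested in gated EC, 0 passed in either direction and 14 had positive estimates, with a median of 0.44. Muscle-led cells are included in these estimates. Summed, the 22 genes stood at 2308, 2446, 1978 and 2156 CPM in gated EC of s001 to s004. In endothelium-led cells their sum was 2000, 2028, 1978 and 2018 CPM. The 4 at the highest level in endothelium-led cells were *Fhl1* at 996 CPM, *Csrp1* at 240, *Tpm1* at 202 and *Cald1* at 185, and their estimates were -0.06, 0.18, 0.44 and 0.38. These genes encode LIM domain proteins, a tropomyosin and caldesmon, and endothelium uses them too. Their levels in muscle-led cells were 2692, 1842, 1893 and 2344 CPM, a smaller step than for *Acta2*. *Mylk*, the kinase that activates the light chain, stood at 1.47 and *Smtn*, smoothelin, at 0.84.

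Regulators of this programme were listed too, again tested in gated EC with muscle-led cells included. Summed, they stood at 496 to 621 CPM in muscle-led cells and at 1106 to 1447 CPM in endothelium-led cells. Of 10 listed genes 8 are in the table, 7 were tested, 0 passed and 3 had positive estimates, with a median of -0.02. *Gata6* stood at 438 CPM, *Klf4* at 310, *Mkl2* at 294 and *Tead1* at 75.4 in endothelium-led cells. *Srf*, which encodes the factor that binds CArG boxes, stood at 22.0 CPM with an estimate of -0.02. *Myocd*, its muscle coactivator, stood at 1.20 CPM and was not tested.

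Other members of the same gene families were also listed, most of them nonmuscle forms that carry out these tasks in many cells. *Actb* stood at 1495 CPM in endothelium-led cells, *Myl6* at 1250, *Actg1* at 1080 and *Myl12a* at 662. Of 24 listed, 16 were tested, 0 passed and 13 were positive, with a median of 0.24. The 8 not tested, which include the muscle actins *Acta1*, *Actc1* and *Actg2*, stood at 0.20 to 2.59 CPM. Among the tested genes the estimate was 0.44 for *Actb*, 0.21 for *Myl6*, 0.38 for *Actg1* and 0.00 for *Myl12a*. *Myh9*, the nonmuscle myosin heavy chain, stood at 375 CPM beside 36.9 for *Myh11*, and *Tagln2* at 312 beside 88.0 for *Tagln*. The estimates of *Myh9* and *Tagln2* were 0.61 and 0.28.

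Genes of endothelial to mesenchymal transition were also listed. Of 17, 14 were tested, 0 passed and 7 were positive, with a median of -0.01. *Vim* stood at 2601 CPM, *Fn1* at 821, *Tgfbr2* at 192 and *Twist1* at 180, with estimates of -0.06, 0.02, -0.11 and -0.27. Among 9 pericyte genes 3 were tested, 0 passed and 3 were positive, with a median of 1.41. *Rgs5*, a pericyte and smooth muscle gene, stood at 32.6, 21.4, 0 and 0.67 CPM in gated EC across s001 to s004, with an estimate of 5.67 ± 0.76 (log2 ± SE, edgeR adjusted p = 0.221), above that of each of the 8 genes. Its fitted value rests on 0 counts in s003 and is no bound. It stood at 1228 CPM in muscle-led cells and at 0 to 4.18 CPM in the endothelium-led cells of the 4 libraries, but in s004 it stood at 0.67 CPM in gated EC and 0.68 in endothelium-led cells, so the 2 gated muscle-led cells of that library added no count of it.

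Leukocyte markers summed to 1.02 to 9.43 CPM in gated EC and striated muscle markers to 4.66 to 11.5 CPM. Erythroid markers summed to 85.7 CPM in s001 and to at most 0.67 elsewhere, and *Alas2* among them had no count. Adipocyte, Schwann and mesothelial markers each summed to at most 10.1 CPM.

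The genes most like the summed 8 across gated EC were sought by the mean over libraries of the Spearman correlation on thinned counts, among 9029 genes in at least 5% of cells. The correlations were weak. *Bmp4*, a bone morphogenetic protein, came first with a mean of 0.21, from 0.05 in s001 to 0.41 in s003. *Fmo2*, a flavin monooxygenase, followed at 0.20, and *Ctgf*, *Dcn*, *Nupr1*, *Cnn2*, *Sept4*, *Thbs1*, *Frzb* and *Nox4* lay between 0.15 and 0.17. Cells of a library share depth and handling, so these values only describe the order of the genes. For all 10 of these genes the highest of the 4 library values was in s003.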

How the data were processed

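Aortic cells of 4 libraries were measured by SORT-seq, which the authors aligned to GRCm38 with STAR, per the submitters' processing notes, where Seurat 3.1 is also listed. The deposited values are estimated counts of transcript molecules for each gene in each cell, which the authors corrected for molecules that share an identifier and did not normalize. Inverting that correction gave whole identifiers to within 3.64e-12. Estimated counts were rounded. Cells with more than 1200 genes and at least 3 counts of *Pecam1*, *Cdh5* and *Vwf* were kept, and no doublet caller was run. Deposited totals per library ran from 903288 to 1849097 counts, and 3 counts were taken as the limit behind a 0. CPM, counts per 1000000, were computed over all genes. Counts summed per library were tested with edgeR 4.0.16 (TMM, filterByExpr, quasi-likelihood test, Benjamini-Hochberg) in R 4.3.3, with no covariate, and with DESeq2 1.42.0. Shares carry exact binomial intervals of 95%. The steps were tested on simulated data.

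The 8 genes, the gate and the gene lists were chosen with earlier results of these data known. Genes named are the 8, the gate genes, *Jag1*, the 4 genes at the highest level in the contractile, regulator, relative, transition and dissociation lists, any past the threshold and the 10 most like the summed 8. *Mylk*, *Smtn*, *Srf*, *Myocd*, *Myh9*, *Tagln2*, *Rgs5*, *Dcn*, *Lum*, *Mfap5*, *Fos*, *Acta1*, *Actc1*, *Actg2*, *Col1a2*, *Emcn* and *Alas2* were named after their values were seen. Muscle-led and fibroblast-led classes were added after seeing the data, because 4 cells below the gate were too few as a reference. Alternatives changed the scaling, filter, tool, depth, gate, gene minimum and cells, and left out each library in turn. Gene starts and promoter windows are from RefSeq on GRCm38.p6.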

Additional observations from a re-analysis of the deposited data

Results flagged for a closer look

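One result comes from cells that the comparisons did not use, those with at most 1200 genes. In s002 the highest such cell held 118 counts of the 8 genes among 1930 counts and 915 genes, beside 1 count of the gate genes. The highest in the other libraries held 5 counts in s001, 5 in s003 and 3 in s004, and the next highest in s002 also held 5. This cell carried 57 counts of *Acta2*, 18 of *Myh11*, 16 of *Myl9*, 13 of *Tagln*, 11 of *Tpm2*, 2 of *Cnn1* and 1 of *Itga8*, and was muscle-led. What it was before lysis was not tested.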

How the results depend on the processing

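No gene and none of the 8 passed in all gated EC with DESeq2 size factors in edgeR, in thinned cells, with fewer than 10 counts of the 8 genes per cell, with recovered identifiers, at gates of 1 and 10, at more than 1500 genes or no gene minimum, and without muscle-led or fibroblast-led cells. Without a filter on low counts 110 genes passed and 6 of the 8, and DESeq2 called 2 genes and 0 of the 8. Leaving out 1 library at a time gave 0 to 340 genes and 0 to 6 of the 8. *Tagln* turned to -0.42 in thinned cells, -0.73 with fewer than 10 counts, -0.76 at a gate of 10, -0.86 without muscle-led cells and -0.69 without muscle-led and fibroblast-led cells. It lay between -0.028 (without s001) and 0.38 (without s004) with 1 library left out. *Lmod1* turned to -0.17 at a gate of 10, and without muscle-led cells it was tested only with a library left out, at -1.10 without s001, -1.34 without s002 and -1.55 without s003. The cause was not tested. The other 6 genes kept a positive estimate in every alternative in which they were tested, but its size moved. At a gate of 10 *Acta2* stood at 0.80, *Myh11* at 1.16, *Cnn1* at 0.62, *Myl9* at 0.90, *Tpm2* at 0.59 and *Itga8* at 1.08. The share of counts in cells with 10 or more went from 71.0% to 51.7% in thinned cells, 40.5% without muscle-led cells and 37.0% without muscle-led and fibroblast-led cells, and lay between 68.0% and 76.7% with 1 library left out. With 1 library left out, the share of cells with a count lay between 63.0% and 76.1%, the co-detection ratio between 0.891 and 1.5, and the level below the gate over that above between 35.3 and 86.3. That level was 30.4 at a gate of 10 and 42.3 with no gene minimum, against 60.8. No cell lay below a gate of 1, so that alternative gave no level. No paired analysis was possible because no source says that replicate numbers tie libraries of different labels to a shared animal, day or plate. Depth limits *Cnn1*, *Tpm2*, *Lmod1* and *Itga8*, which rest on 1 to 19 counts per library in endothelium-led cells wherever they were counted.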
